A study of Mus musculus with 12 samples.

Results

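The insulin-like growth factor (IGF) genes described here are the ligands Igf1 and Igf2, the receptor Igf1r and the binding protein genes Igfbp2, Igfbp3, Igfbp4, Igfbp5, Igfbp6 and Igfbp7, which are 9 of the 41709 genes in the deposited table. They were chosen by name as one family, with levels in these libraries already known: Igf2 and Igfbp5 were picked because they set the DKO libraries and the library SMKO 2 apart from the others. For that reason the values of Igf2 and Igfbp5 are given as a description without a test. All 9 genes had a count in at least 1 library. Igfbp2 and Igfbp6 had too few counts for the test, which was made for 6296 genes, 7 of the 9 among them.

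The RNA came from the leaflets of the aortic valve in C57BL/6J;129SvEv mice aged 2 months. Leaflets were cut by laser from fixed, frozen and stained sections of 20 µm. There were 4 genotype groups, CTRL, ECKO, SMKO and DKO, with 3 libraries each. The labels give only these codes. From what is known of the study, the gene deleted is Efemp2, which encodes fibulin-4, a glycoprotein that elastic fibre assembly needs. ECKO mice lack it in endothelial cells, SMKO mice in smooth muscle cells and DKO mice in both, and CTRL mice keep it. The labels name no Cre driver and no allele, and they assign no animal to a library, so p-values measure the spread between these libraries. Comparisons of DKO, SMKO and ECKO with CTRL share the same 3 CTRL libraries.

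IGF1 and IGF2 are small secreted proteins that act on cells mainly through the receptor tyrosine kinase IGF1R, which drives growth, survival and matrix synthesis. The binding proteins IGFBP1 to IGFBP6 hold the ligands in the tissue or in plasma with high affinity and can block or prolong their action. IGFBP7 shares the cysteine-rich amino-terminal domain but binds IGFs weakly, and it is a matrix protein of vessel walls. Igf2 is an imprinted gene read from the paternal copy, and in most mouse tissues it is strong before birth and falls afterwards.

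The promoters of Igf2, Igfbp3, Igfbp5 and Igfbp7 are shown because these are the tested genes whose DKO libraries lay wholly outside the range of the CTRL and ECKO libraries. Each is 1 window of 300 bases, from 250 before to 50 after an annotated start, written 5′ to 3′ on the strand of the gene and taken from RefSeq (build GRCm38.p6, which is not the build the reads were mapped to). Capitals mark the GC box GGGCGG, a motif bound by SP-family factors, on either strand. Of the 4 windows listed for Igf2, the one shown held the most GC boxes; which start the reads came from is not known.
Igf2 (chr7:142657447-142657746, minus strand): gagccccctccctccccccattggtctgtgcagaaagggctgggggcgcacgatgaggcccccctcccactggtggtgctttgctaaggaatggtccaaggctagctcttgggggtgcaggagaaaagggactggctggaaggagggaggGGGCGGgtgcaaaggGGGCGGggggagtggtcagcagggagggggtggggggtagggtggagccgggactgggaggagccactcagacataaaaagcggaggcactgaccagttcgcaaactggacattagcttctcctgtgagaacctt
Igfbp3 (chr11:7213874-7214173, minus strand): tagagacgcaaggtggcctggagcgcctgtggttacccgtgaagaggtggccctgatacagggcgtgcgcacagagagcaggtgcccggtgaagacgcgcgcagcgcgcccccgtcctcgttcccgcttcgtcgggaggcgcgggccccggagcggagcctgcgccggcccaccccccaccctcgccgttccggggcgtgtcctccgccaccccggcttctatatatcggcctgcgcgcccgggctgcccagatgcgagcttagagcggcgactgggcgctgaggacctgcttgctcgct
Igfbp5 (chr1:72874816-72875115, minus strand): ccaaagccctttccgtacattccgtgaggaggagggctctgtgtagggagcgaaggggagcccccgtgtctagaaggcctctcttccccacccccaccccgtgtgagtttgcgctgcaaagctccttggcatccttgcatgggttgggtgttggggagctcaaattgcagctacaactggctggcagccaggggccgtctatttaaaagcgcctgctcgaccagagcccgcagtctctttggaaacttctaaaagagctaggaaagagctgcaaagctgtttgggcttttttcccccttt
Igfbp7 (chr5:77407996-77408295, minus strand): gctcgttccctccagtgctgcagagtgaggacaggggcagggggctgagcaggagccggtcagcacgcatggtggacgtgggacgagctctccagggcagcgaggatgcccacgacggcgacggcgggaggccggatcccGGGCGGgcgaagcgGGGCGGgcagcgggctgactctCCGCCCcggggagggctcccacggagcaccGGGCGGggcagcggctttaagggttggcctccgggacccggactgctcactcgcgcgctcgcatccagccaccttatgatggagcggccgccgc
The Igf2 window held 2 GC boxes and the Igfbp7 window 4, while the Igfbp3 and Igfbp5 windows held none. A GC box was present in 35.66% of all 32851 windows of this length. The other motif searched on both strands, the exact TATA box letters TATAAA, was in none of these 4 windows and in 13.62% of all windows. It was found for Igfbp4, from base -28, and on the opposite strand for Igfbp6, from base -148. Other TATA-like letters were not searched. These matches describe the letters only, and the pair of genes chosen for a like pattern, Igf2 and Igfbp5, did not share either motif.

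The libraries were shallow, with totals of 74827 (SMKO 3) to 615665 counts (ECKO 2), and mitochondrially encoded genes took 10.5% to 28.5% of counts. Efemp2, the gene deleted, had 58, 23 and 9 counts in the CTRL libraries, 3, 15 and 8 in those of ECKO and 4, 0 and 0 in those of SMKO. It had 0 in every DKO library. Levels are given as TMM-scaled CPM, counts scaled to a common library size, with mean ± SD over 3 libraries, and fold changes as log2 values ± SE from edgeR's quasi-likelihood fit of all 12 libraries. A call is a Benjamini-Hochberg adjusted p under 0.05 over the 6296 genes. Levels of different genes are compared only as TPM, the authors' values per transcript length. Intervals for pooled counts are 95% exact binomial intervals and cover counting error only. In whole leaflets, fewer cells of a type and less RNA per cell cannot be told apart.

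SMKO 2 stood apart from SMKO 1 and SMKO 3 for most of these genes. Its scaling factor was 0.739, the lowest of the 12, and 24.1% of its counts were mitochondrial, against 15.1% in SMKO 1 and 28.5% in SMKO 3. SMKO means of the 7 tested IGF genes, and the SMKO differences described below for them, are therefore given with and without it. Its Efemp2 count of 0 was shared by SMKO 3 and the DKO libraries, so this count does not tell the labels SMKO and DKO apart. Whether SMKO 2 carries a wrong label or holds mixed material was not tested, and each SMKO value that includes it rests on that label.

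Igf2, the ligand that is strong before birth, was well detected in 8 libraries and close to its detection limit in the other 4. Its level was 386, 218 and 498 CPM in CTRL 1, 2 and 3, and 399, 378 and 337 CPM in ECKO 1, 2 and 3. It was 607, 15.4 and 704 CPM in SMKO 1, 2 and 3, and 4.54, 13.9 and 33.2 CPM in DKO 1, 2 and 3. The 3 DKO libraries thus lay below every CTRL and ECKO library, and SMKO 2 lay within the DKO range, while SMKO 1 and SMKO 3 were the highest of all. These levels rest on 1, 7 and 8 counts in DKO and 3 counts in SMKO 2, against 67 to 265 in CTRL, 78 to 259 in ECKO, 357 in SMKO 1 and 51 in SMKO 3.

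Mean levels of Igf2 were 367 ± 141 CPM (CTRL), 372 ± 31.4 (ECKO), 442 ± 373 (SMKO) and 17.2 ± 14.6 (DKO), each with n = 3. Without SMKO 2 the SMKO mean was 656 ± 68.3 CPM (n = 2). The fitted log2 fold change was -4.39 ± 1.15 in DKO against CTRL, -4.43 ± 1.14 against ECKO and -4.65 ± 1.16 against SMKO. SMKO against CTRL gave 0.26 ± 0.86, and ECKO against CTRL 0.05 ± 0.84. Without SMKO 2, SMKO against CTRL stood at 0.84 ± 0.30 and DKO against SMKO at -5.24 ± 0.40. SMKO 2 was singled out for its Igf2 level, so these shifts and the smaller SE follow from leaving it out. Pooled over libraries, the 16 DKO counts amounted to 0.0515 of the CTRL level (interval 0.0292 to 0.0846). The 3 counts of SMKO 2 amounted to 0.0249 of the pooled level of SMKO 1 and SMKO 3 (0.00512 to 0.0734). By log2 fold change Igf2 had rank 3 from the lowest among all genes tested in DKO against CTRL, and Igfbp5, described below, rank 9. Both genes were chosen because they set the DKO libraries apart, so low ranks follow from that choice.

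Igf1, the ligand that mediates much of the effect of growth hormone, showed a smaller difference with overlapping groups. The CTRL libraries stood at 599, 456 and 334 CPM, those of ECKO at 717, 289 and 269 CPM, those of SMKO at 527, 185 and 290 CPM and those of DKO at 418, 229 and 195 CPM, each in library order. SMKO 2 was the lowest of all libraries and ECKO 1 the highest. Mean levels were 463 ± 132 CPM (CTRL), 425 ± 253 (ECKO), 334 ± 175 (SMKO, or 409 ± 168 without SMKO 2) and 281 ± 120.0 (DKO). Igf1 did not pass in DKO against CTRL (log2 fold change -0.75 ± 0.45, edgeR adjusted p = 0.572), against ECKO (-0.58 ± 0.46, 0.718) or against SMKO (-0.31 ± 0.46, 0.976). Without SMKO 2 the value against SMKO was -0.64 and did not pass (edgeR adjusted p = 0.734). The 95% interval of the DKO against CTRL difference ran from -1.80 to 0.29.

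The balance of the 2 ligands differed by library in the same way as Igf2. Igf2 made up 53.7%, 46.2% and 72.8% of the summed Igf1 and Igf2 TPM in CTRL 1, 2 and 3, and 50.03%, 70.2% and 69.3% in ECKO. The share was 67.4%, 13.0% and 81.4% in SMKO, and 1.92%, 9.86% and 23.4% in DKO. In the DKO libraries and SMKO 2 most ligand transcript was Igf1, whereas Igf2 was the larger share in every other library except CTRL 2. No test was made of this share, since Igf2 was chosen for its pattern.

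**Figure D1:**
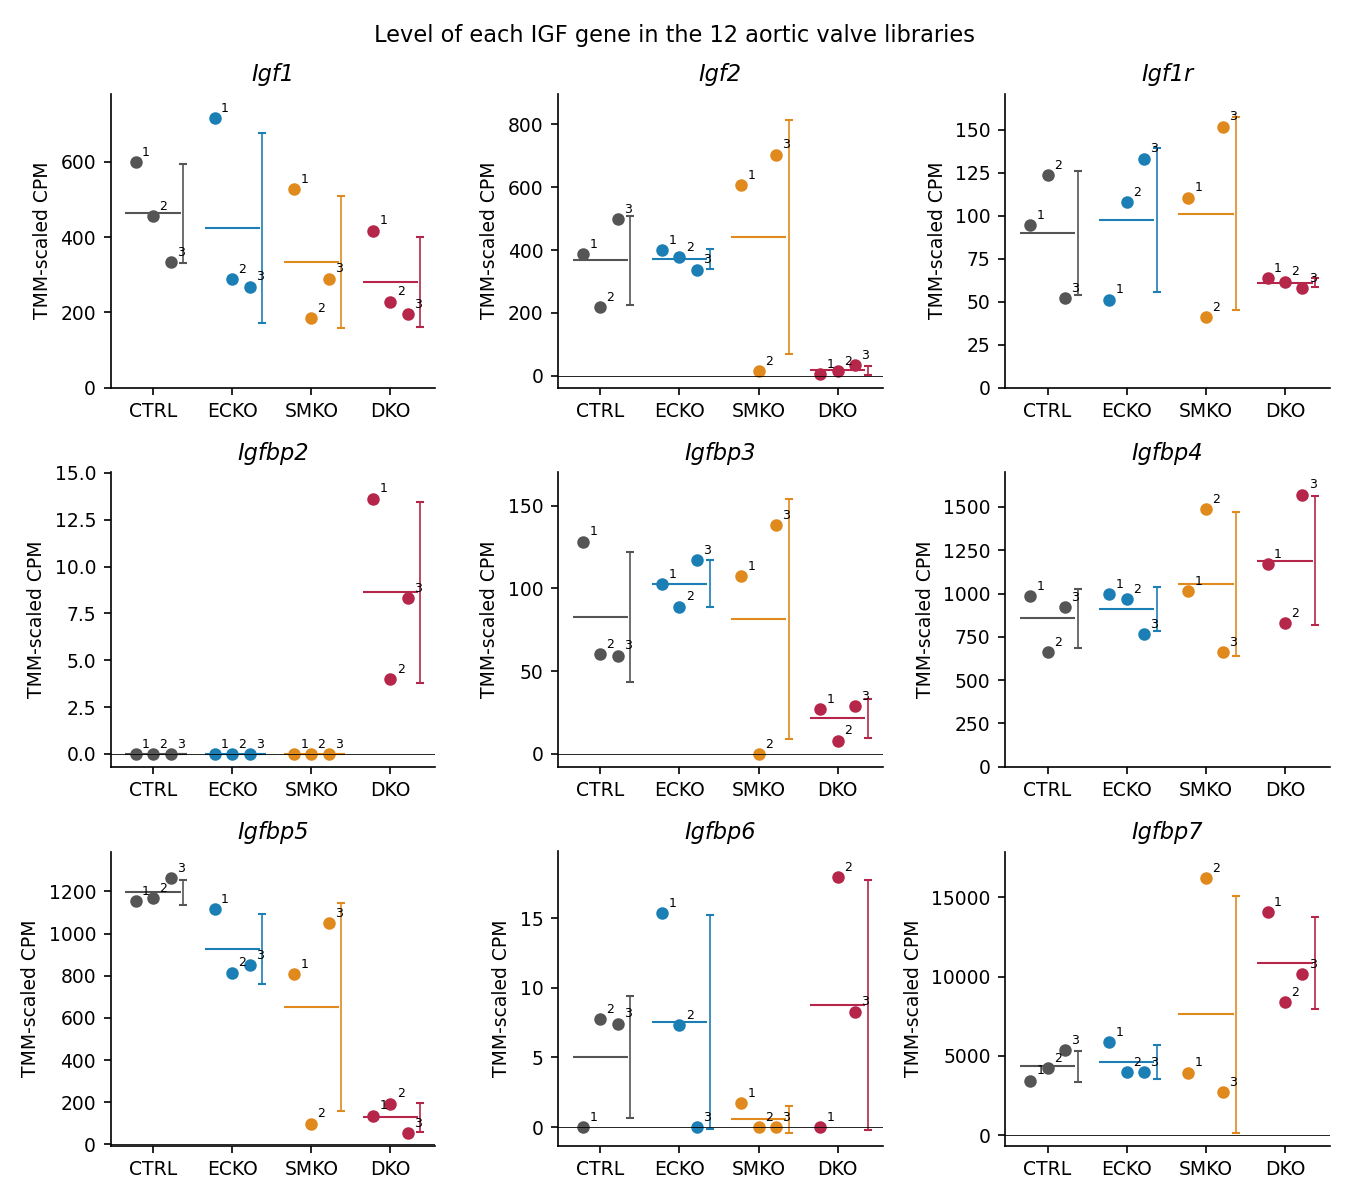
Each panel shows 1 gene, with TMM-scaled CPM on a linear axis and 1 numbered point per library, a line at the group mean and a bar of ± 1 SD (n = 3). Igf2 and Igfbp5 are low in the 3 DKO libraries and in SMKO 2, Igfbp7 is high in the same 4 libraries, and Igfbp2 is at 0 outside DKO.

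Igf1r, the receptor tyrosine kinase, was low and variable. The CTRL libraries stood at 94.7, 124 and 52.0 CPM, those of ECKO at 51.2, 108 and 133 CPM, those of SMKO at 111, 41.1 and 152 CPM and those of DKO at 63.6, 61.7 and 58.0 CPM. The 3 DKO libraries were close together at 61.1 ± 2.81 CPM and lay within the CTRL range, whose mean was 90.1 ± 36.0. SMKO 2 was again below the other libraries, and the SMKO mean rose from 101 ± 56.0 to 131 ± 29.2 CPM without it. The difference of DKO from CTRL did not pass (log2 fold change -0.68 ± 0.36, edgeR adjusted p = 0.486, 95% interval -1.50 to 0.15). In DKO against ECKO it did not pass either (-0.75 ± 0.36, adjusted p = 0.447). Igf2r, which carries IGF2 to the lysosome for breakdown and is not one of the 9 genes, stood at 158 ± 66.4 CPM in CTRL and 111 ± 51.7 in DKO and did not pass (-0.55 ± 0.30, adjusted p = 0.505).

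Igfbp5, a binding protein that attaches to matrix and bone mineral, was the least variable of these genes within CTRL and was lower in DKO and SMKO 2. Its level was 1154, 1168 and 1263 CPM in CTRL 1, 2 and 3, and 1116, 814 and 852 CPM in ECKO. It was 808, 97.6 and 1049 CPM in SMKO, and 136, 193 and 53.9 CPM in DKO. SMKO 2 lay within the DKO range, and the highest DKO library was far below the lowest library outside that set, SMKO 1. The ECKO libraries and SMKO 1 and SMKO 3 also lay below every CTRL library, by a much smaller amount. These levels rest on 170 to 792 counts in a CTRL library, 218 to 558 in one of ECKO, 475, 19 and 76 in SMKO 1, 2 and 3, and 30, 97 and 13 in DKO 1, 2 and 3.

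Mean levels of Igfbp5 were 1195 ± 59.1 CPM (CTRL), 927 ± 165 (ECKO), 652 ± 495 (SMKO) and 128 ± 70.0 (DKO). Without SMKO 2 the SMKO mean was 929 ± 170 CPM (n = 2), close to that of ECKO. The log2 fold change of Igfbp5 was -3.18 ± 0.72 in DKO against CTRL, -2.82 ± 0.72 against ECKO and -2.28 ± 0.72 against SMKO. SMKO against CTRL gave -0.90 ± 0.67, and ECKO against CTRL -0.37 ± 0.65. Without SMKO 2, SMKO against CTRL stood at -0.40 ± 0.30 and DKO against SMKO at -2.80 ± 0.31. Pooled, the 140 DKO counts amounted to 0.124 of the CTRL level (interval 0.104 to 0.147). The interaction, which sets the DKO difference against the sum of the ECKO and SMKO differences, was -1.91 ± 0.96 for Igfbp5 and -4.70 ± 1.45 for Igf2, both as a description. Without SMKO 2 these values were -2.42 ± 0.41 and -5.29 ± 0.49. SMKO 2 was singled out on these same genes, so leaving it out widens such gaps and lowers the SE by construction.

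**Figure D2:**
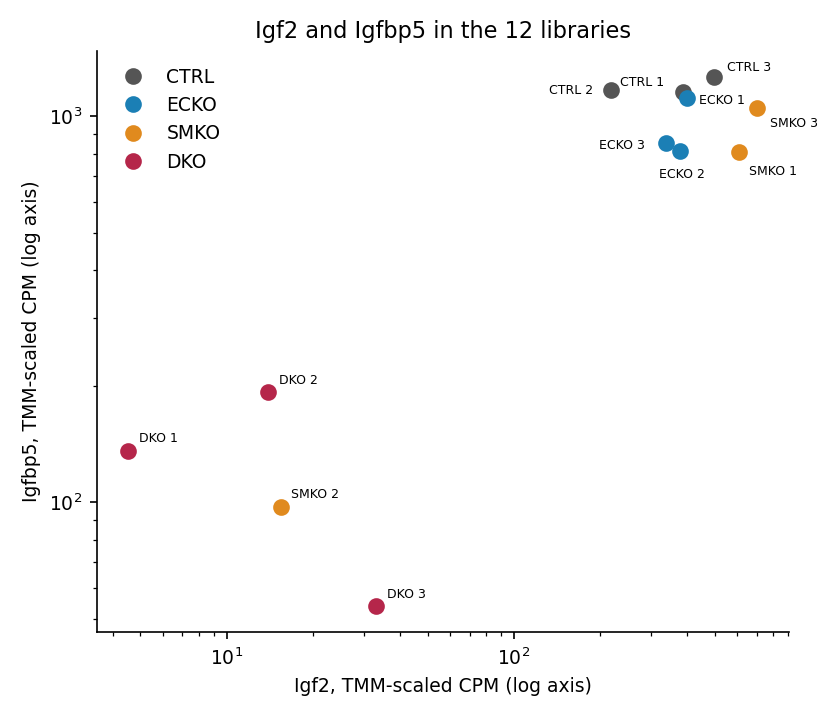
Each point is 1 library, with Igf2 on the horizontal and Igfbp5 on the vertical axis, both in TMM-scaled CPM on log axes and coloured by group. DKO 1, DKO 2, DKO 3 and SMKO 2 lie at 4.54 to 33.2 CPM of Igf2 and 53.9 to 193 CPM of Igfbp5, apart from the other 8 libraries.

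Igfbp3, the main carrier of IGFs in plasma and also a product of stromal cells, was lower in DKO than in CTRL and ECKO in every library. The CTRL libraries stood at 128, 60.3 and 59.4 CPM, those of ECKO at 102, 89.0 and 117 CPM, those of SMKO at 107, 0 and 138 CPM and those of DKO at 27.2, 7.97 and 29.0 CPM. SMKO 2 had no count, which allows up to 3 counts, while SMKO 1 had 63 and SMKO 3 had 10. The DKO libraries had 6, 4 and 7 counts. Mean levels were 82.7 ± 39.5 CPM (CTRL), 103 ± 14.0 (ECKO), 81.7 ± 72.4 (SMKO, or 123 ± 21.8 without SMKO 2) and 21.4 ± 11.7 (DKO).

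In the fit of all 12 libraries Igfbp3 did not pass in DKO against CTRL (log2 fold change -2.24 ± 0.84, edgeR adjusted p = 0.330), against ECKO (-2.45 ± 0.84, 0.316) or against SMKO (-2.07 ± 0.90, 0.776). Leaving out SMKO 2, a library of neither group in the first 2 comparisons, gave log2 fold changes of -2.27 ± 0.41, -2.47 ± 0.41 and -2.63 ± 0.46, with edgeR adjusted p of 0.000914, 0.00028 and 0.000757. Igfbp3 thus passed in all 3 comparisons only in this fit, which called 1.82%, 1.97% and 1.68% of all genes. SMKO 2 was singled out in these same data. It had no Igfbp3 count, so leaving it out widens the gap between DKO and SMKO by construction. These adjusted p are therefore a description. With all libraries and no filter on low counts edgeR also called Igfbp3 against CTRL (adjusted p = 0.00582) and against ECKO (0.00191). It did not call Igfbp3 against SMKO (0.113), and the shares of all genes called were 0.952%, 1.04% and 0.193%. Pooled, the 17 DKO counts amounted to 0.192 of the CTRL level (interval 0.108 to 0.319).

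Igfbp4, a binding protein that mostly restrains IGF action until it is cleaved, was similar in all groups. The CTRL libraries stood at 987, 661 and 921 CPM, those of ECKO at 998, 967 and 767 CPM, those of SMKO at 1014, 1489 and 663 CPM and those of DKO at 1171, 828 and 1572 CPM. The ranges of all 4 groups overlapped, and SMKO 2 and DKO 3 were the highest libraries. Mean levels were 856 ± 172 CPM (CTRL), 911 ± 126 (ECKO), 1055 ± 415 (SMKO, or 838 ± 249 without SMKO 2) and 1190.5 ± 372 (DKO). The difference of DKO from CTRL did not pass (log2 fold change 0.47 ± 0.31, edgeR adjusted p = 0.595, 95% interval -0.24 to 1.19).

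Igfbp7, the weakly binding matrix member, was the only one of the 7 genes tested whose DKO libraries all lay above the CTRL and ECKO libraries. The CTRL libraries stood at 3441, 4219 and 5364 CPM, those of ECKO at 5847, 3992 and 3999 CPM, those of SMKO at 3945, 16222 and 2705 CPM and those of DKO at 14047, 8386 and 10155 CPM. SMKO 2 was the highest of the 12 libraries, and SMKO 1 and SMKO 3 were within or below the CTRL range. Mean levels were 4341 ± 967 CPM (CTRL), 4613 ± 1069 (ECKO), 7624 ± 7472 (SMKO, or 3325 ± 877 without SMKO 2) and 10863 ± 2896 (DKO). Depth did not limit this gene, which had 196 to 4211 counts in a library.

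With all 12 libraries Igfbp7 did not pass in DKO against CTRL (log2 fold change 1.32 ± 0.50, edgeR adjusted p = 0.247), against ECKO (1.24 ± 0.49, 0.330) or against SMKO (0.51 ± 0.49, 0.930). Without SMKO 2 it passed in all 3, at 1.31 ± 0.29, 1.22 ± 0.29 and 1.70 ± 0.34, with edgeR adjusted p of 0.00772, 0.0133 and 0.00336. As for Igfbp3, these values are a description, since SMKO 2 was singled out in these data and was the highest in Igfbp7. With no filter on low counts Igfbp7 passed against CTRL (edgeR adjusted p = 0.0484) and not against ECKO (0.0798). In SMKO against CTRL the log2 fold change of Igfbp7 was 0.82 ± 0.49 with SMKO 2 and -0.40 without it, and neither passed (edgeR adjusted p = 0.894 and 0.881). Igfbp7 shares 85 of its 1209 exon bases with Polr2b on the opposite strand, which had 120 counts over all libraries, so little of its count could be misplaced.

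**Figure D3:**
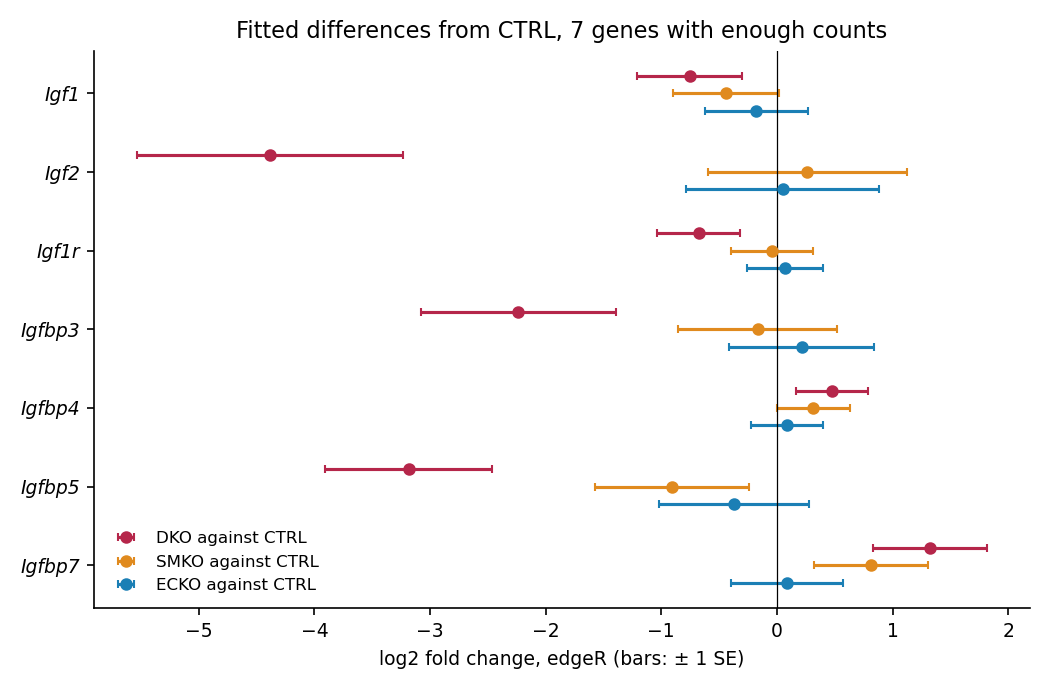
Points are fitted log2 fold changes of DKO, SMKO and ECKO against CTRL for the 7 genes with enough counts, and bars are ± 1 SE from edgeR. In DKO the points of Igf2, Igfbp5 and Igfbp3 lie between -4.39 and -2.24 and that of Igfbp7 at 1.32, while the ECKO points lie between -0.37 and 0.21.

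Igfbp2 and Igfbp6 were close to undetected. Igfbp2, a binding protein common in fetal tissue, had 0 counts in the 9 CTRL, ECKO and SMKO libraries and 3, 2 and 2 counts in DKO 1, 2 and 3. Its pooled DKO level of 7.26 CPM (95% exact Poisson interval 2.92 to 15.0) was 3.55 times the floor of 3 counts over the CTRL libraries, 3.19 times that of ECKO and 2.07 times that of SMKO. With the counting error of these 7 counts included, the lower 95% exact limits of the ratios were 2.20, 1.97 and 1.28. Igfbp6, which prefers IGF2 over IGF1, had 0, 5 and 1 counts in the CTRL libraries, 3, 5 and 0 in those of ECKO, 1, 0 and 0 in those of SMKO and 0, 9 and 2 in those of DKO. The groups overlapped.

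Of the 5 tested genes that were not chosen for their pattern, edgeR called 0 in every pair and in the interaction with all 12 libraries, as did DESeq2 and limma-voom. At an unadjusted p under 0.05 there were 2 in DKO against CTRL (Igfbp7 and Igfbp3), 3 in DKO against ECKO (with Igf1r as well) and 1 in DKO against SMKO (Igfbp3). Over all 6296 genes the same threshold was met by 732, 680 and 396. Over all genes, edgeR called 0.492% for DKO against CTRL and 0.572% for the same group against ECKO. It called 0% in SMKO against CTRL, ECKO against CTRL, DKO against SMKO and SMKO against ECKO, where 239 to 396 genes had an unadjusted p under 0.05, and 0.0318% in the interaction.

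The libraries of DKO and CTRL did not overlap for Igf2, Igfbp3, Igfbp5 and Igfbp7, a separation seen for 17.8% of all genes tested. The same 4 genes were separated in DKO against ECKO, where the share of all genes was 18.9%. None was separated in DKO against SMKO (9.55% of all genes), since SMKO 2 fell among or beyond the DKO libraries. Igfbp5 alone was separated between SMKO and CTRL, beside 10.5% of all genes, and between ECKO and CTRL, beside 11.8%. For Igf2 and Igfbp5 the separation follows from how they were chosen.

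Ordered by TPM, Igfbp7 was the most abundant of the 9 genes in every group, and Igf2 moved from place 4 in CTRL to place 9 in DKO. In CTRL the means were 6592 ± 1173 TPM for Igfbp7, 416 ± 156 for Igfbp4, 379 ± 107 for Igfbp5, 120 ± 39.4 for Igf2, 94.8 ± 50.7 for Igf1, 53.9 ± 37.7 for Igfbp3, 16.3 ± 9.62 for Igf1r and 7.83 ± 7.70 for Igfbp6, with Igfbp2 at 0. Igfbp4 and Igfbp5 overlapped in range, as did each pair of neighbours from Igf2 down. In DKO the order was Igfbp7 (14620 ± 2117 TPM), Igfbp4 (490 ± 91.1), Igf1 (46.3 ± 15.9), Igfbp5 (13.3 to 68.0), Igfbp6, Igfbp3, Igfbp2, Igf1r and Igf2 (5.16 ± 3.88). Below Igfbp4, each of these neighbours in DKO overlapped in range.

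The summed binding protein transcripts were dominated by Igfbp7, and without it the make-up shifted from a near balance of Igfbp4 and Igfbp5 to mostly Igfbp4. Igfbp7 held 85.5% to 90.4% of binding protein TPM in CTRL and 88.8% to 90.8% in ECKO. It held 95.1% to 97.2% in DKO, and 88.4%, 97.1% and 85.2% in SMKO 1, 2 and 3. The ratio of Igfbp4 to Igfbp5 TPM was 0.867 to 1.31 in the CTRL libraries, 1.37 to 1.82 in those of ECKO, 1.92, 23.4 and 0.967 in those of SMKO, and 13.2, 6.56 and 44.6 in those of DKO. With Igfbp7 left out, the sum of the other binding proteins was 571 to 1135 TPM in CTRL and 488 to 642 TPM in DKO, which overlapped.

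**Figure D4:**
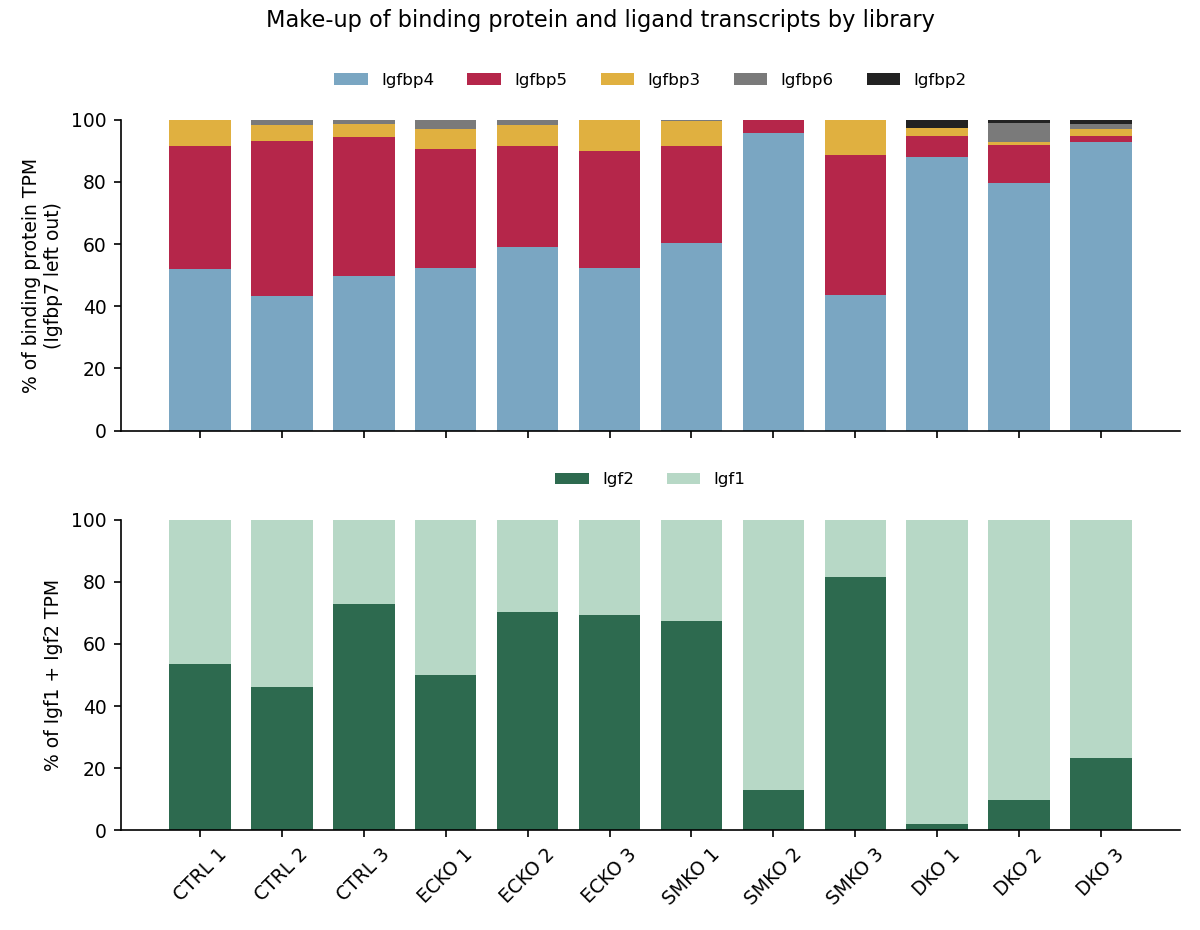
Stacked bars give, for each library, the share of each gene in the TPM of the binding proteins without Igfbp7 (top) and of the ligands Igf1 and Igf2 (bottom), in percent. Igfbp4 takes 79.8% to 95.9% of the upper bars in DKO and SMKO 2 and 43.3% to 60.3% elsewhere, and Igf2 takes at most 23.4% of the lower bars in DKO and SMKO 2.

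Genes whose level over the 12 libraries was most like that of Igf2 and of Igfbp5 were listed by Pearson correlation of log2 CPM, as a description. For Igf2 these were Cavin2, a caveola coat protein (r = 0.98), Svil, an actin-binding membrane protein (0.98), Ogn, a small leucine-rich proteoglycan (0.95), Ttc5 (0.94), the matrix protein Spon1 (0.94), Csrp2, a LIM protein of contractile cells (0.94), Myoc (0.93) and the endothelial matrix factor Egfl7 (0.93). For Igfbp5 they were Synpo2, an actin-bundling protein (0.96), the nuclear receptor Nr2f2 (0.93), Cavin2 (0.93), Enpp2, which makes lysophosphatidic acid (0.92), the VEGF receptor Kdr (0.91), Svil (0.91), Ogn (0.90) and Ttc5 (0.90).

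With group means removed the correlations were 0.84 (Myoc) to 0.97 (Svil) for Igf2 and 0.74 (Svil) to 0.86 (Synpo2) for Igfbp5. Removing group means keeps the gap between SMKO 2 and the other SMKO libraries, and the genes were picked with SMKO 2 included. These values therefore cannot tell likeness within groups from the gap of SMKO 2. Cavin2, Svil, Ogn and Ttc5 were on both lists. Each of these genes was low in the same 4 libraries, which follows from how they were picked. Cavin2 was at 136 to 166 CPM in DKO and 154 in SMKO 2, and at 287 to 338 CPM in the other 8 libraries. Ogn was at 36.3 to 49.8 CPM in DKO, 46.2 in SMKO 2 and 111 to 207 elsewhere. Between Igf2 and Igfbp5 themselves the correlation was 0.89 over 12 libraries and 0.08 over the 6 CTRL and ECKO libraries, where neither gene was low. Within those 6, the genes listed for Igf2 stood at -0.40 (Myoc) to 0.70 (Svil) with it, and those listed for Igfbp5 at -0.95 (Ogn) to 0.46 (Synpo2).

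The wider IGF pathway was described with 9 lists that together hold 110 genes, of which 68 had enough counts to be tested. Leaving aside Igf2 and Igfbp5, edgeR called 2 of them in any pair: Slc38a4, lower in DKO than in CTRL, and Ccn2, higher in DKO than in ECKO. Both are reported with their values below, beside the genes with the smallest p in each list, which did not pass. Over all genes tested the median log2 fold change of DKO was 0.016 against CTRL and 0.019 against ECKO.

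In the imprinted gene network, which is coexpressed with Igf2 in growing tissues, 9 of 18 genes were tested, and in DKO against CTRL 8 lay below 0, with a median log2 fold change of -0.62 and 1 call. Slc38a4, an amino acid transporter, was at 39.4, 55.6 and 22.3 CPM in the CTRL libraries, 15.4 to 43.6 in those of ECKO, 20.5 to 41.4 in those of SMKO, and 9.08, 7.97 and 12.4 in those of DKO. The DKO libraries had 2, 4 and 3 counts and lay below all others. Its call in DKO against CTRL (log2 fold change -2.16 ± 0.52, edgeR adjusted p = 0.0495) was lost in 9 of 17 other settings that gave an adjusted p, namely without CTRL 1, CTRL 2, ECKO 2, ECKO 3 or any 1 of the DKO libraries (up to 0.362), with library totals (0.0571) and with limma-voom (0.101). Grb10, an adaptor that dampens signalling by the insulin and IGF1 receptors, was at 112 ± 10.2 CPM in CTRL and 74.8 ± 10.3 in DKO without passing (-0.62 ± 0.30, adjusted p = 0.416). Plagl1, a zinc finger factor that activates Igf2, fell short of a call too (-1.04 ± 0.49, 0.409), as did Ndn (-0.95 ± 0.33, 0.214). In SMKO 1, 2 and 3 Plagl1 was at 8.51, 25.7 and 0 CPM and Grb10 at 85.1, 25.7 and 41.4 CPM. Both were thus below every CTRL library in SMKO as well, unlike Igf2 in SMKO 1 and SMKO 3. H19, the noncoding neighbour of Igf2, had 0 counts in all 12 libraries.

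Among genes induced by FOXO factors, which IGF signalling through AKT keeps out of the nucleus, 11 of 12 were tested and 0 were called by edgeR in DKO against CTRL. There were 10 below 0, with a median log2 fold change of -0.38, and 3 had an unadjusted p under 0.05, as had 732 of the 6296 genes. Sesn3, a stress-induced inhibitor of mTOR signalling, had mean levels of 140 ± 3.58 CPM (CTRL), 104 ± 36.3 (ECKO), 69.7 ± 2.00 (SMKO, with SMKO 2 at 71.9) and 76.5 ± 1.63 (DKO), and DKO against CTRL gave -0.86 ± 0.27 (edgeR adjusted p = 0.175). Its SMKO libraries, SMKO 2 included, were as low as those of DKO, unlike Igf2. Klf15 (-1.11 ± 0.40, adjusted p = 0.240) and Cited2 (-1.18 ± 0.53, 0.380) did not pass either. In DKO against ECKO all 11 lay below 0, with a median of -0.46 and 0 calls.

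The signalling genes inside the cell moved little. Of 26, 21 were tested, with 13 above and 8 below 0 and a median log2 fold change of 0.13 in DKO against CTRL. There were 0 calls by edgeR and 1 unadjusted p under 0.05, beside 732 of all 6296 genes. Gsk3b, a kinase downstream of the receptor, did not pass (-0.46 ± 0.26, edgeR adjusted p = 0.513). Of the proteases that cut binding proteins and their inhibitors, 4 of 10 were tested and 0 called. Htra1, a secreted serine protease, was at 206 ± 32.9 CPM in CTRL and 318 ± 80.3 in DKO (0.64 ± 0.25, adjusted p = 0.288; against ECKO 0.88 ± 0.26, 0.118). Ctsd, a lysosomal protease, was at 350 ± 166 and 879 ± 251 CPM (1.37 ± 0.55, 0.360), and Htra3 at 535 ± 282 and 316 ± 74.7 CPM (-0.74 ± 0.49, 0.621).

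Other proteins with an IGFBP-type domain include the CCN family of matricellular proteins. Of 13 listed genes, 8 were tested, with a median log2 fold change of 0.33 in DKO against CTRL and 0 calls by edgeR, and with 1 call in DKO against ECKO. Ccn2, a matricellular protein, was at 1140, 764 and 1337 CPM in the CTRL libraries, 1188, 1024 and 810 in those of ECKO, 664, 1802 and 566 in those of SMKO, and 3632, 2953 and 2521 in those of DKO. The DKO libraries were the highest of all, and SMKO 2 came next. Ccn2 rose in DKO against ECKO (1.59 ± 0.36, edgeR adjusted p = 0.0399) and fell just short against CTRL (1.50 ± 0.36, 0.0535). The call against ECKO was lost without any 1 of the ECKO or DKO libraries or CTRL 1 (up to 0.284) and with limma-voom (0.0831). The value against CTRL passed without any 1 of the SMKO libraries (0.00039 without SMKO 2), with no low-count filter, with library totals and with DESeq2 (0.00638). Ccn5 did not pass (1.47 ± 0.64, 0.415).

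Among matrix and membrane partners of IGFs and binding proteins, 11 of 13 were tested and 0 called in either comparison, with 9 above 0 and a median of 0.27 in DKO against CTRL. Itga5, the fibronectin receptor chain, was at 24.8, 30.9 and 37.1 CPM in CTRL and 72.6, 77.7 and 74.6 in DKO, without overlap. Such a separation of DKO and CTRL was seen for 17.8% of all genes tested. Itga5 was at 30.7, 43.8 and 50.5 CPM in ECKO and 45.9, 61.6 and 124 in SMKO, so the SMKO libraries lay above CTRL as well. In DKO against CTRL it missed the threshold with all libraries (1.37 ± 0.34, edgeR adjusted p = 0.0626). It passed in 5 of 18 alternatives, among them those without SMKO 2 (0.0273), with no low-count filter (0.0326) and with limma-voom (0.0277). With library totals it did not pass (0.239), the highest adjusted p was 0.304, and DESeq2 gave none. Spp1, a secreted phosphoprotein of macrophages and mineralising tissue, was at 77.7 ± 28.0 CPM in CTRL and 710 ± 300 in DKO and did not pass (3.21 ± 1.38, 0.418). Its level varied widely in ECKO (257 ± 268 CPM) and SMKO (432 ± 576). Cav1, the caveola scaffold, was at 260 ± 66.5 and 183 ± 36.1 CPM (-0.53 ± 0.25, 0.409).

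**Figure D5:**
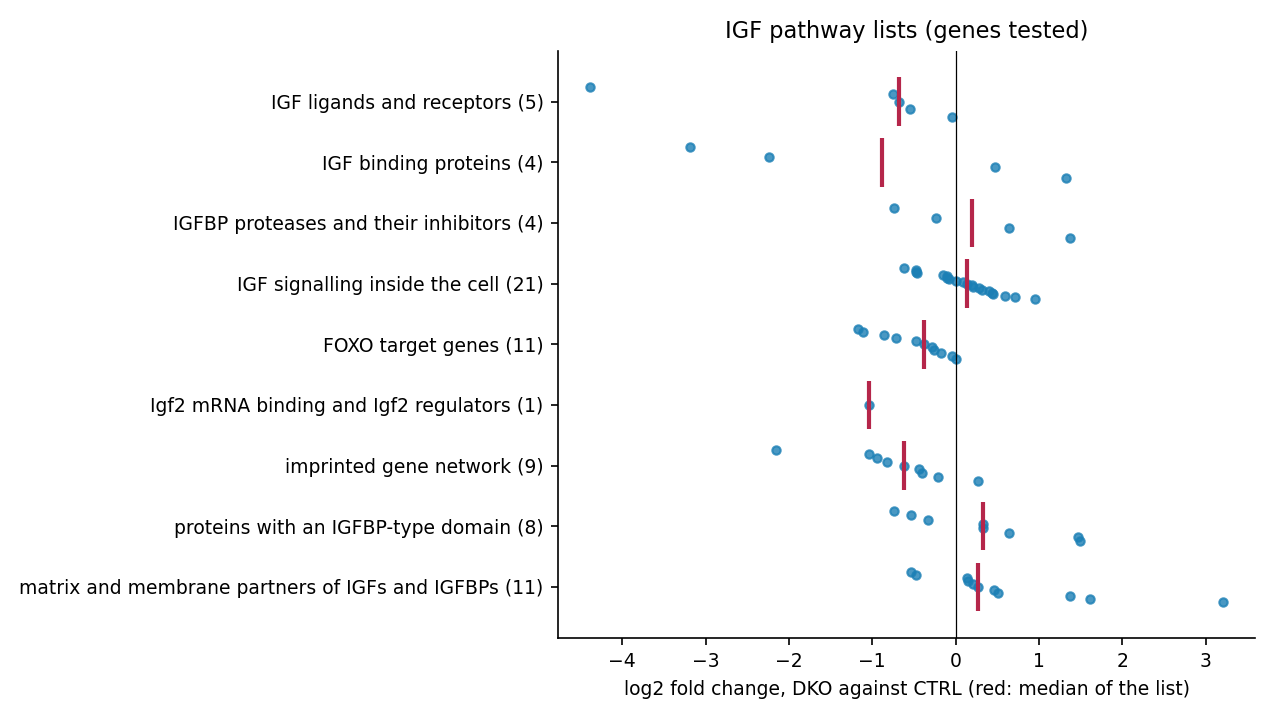
Each point is the fitted log2 fold change of 1 tested gene in DKO against CTRL, in rows by list with the number tested, and red bars are the list medians. The imprinted gene and FOXO target rows lie mostly below 0, with medians of -0.62 and -0.38, and the lowest points of the ligand and binding protein rows are Igf2 (-4.39) and Igfbp5 (-3.18), the genes chosen for their pattern.

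Markers of the cell types a leaflet can hold were summed in each library beside these results. All 10 valve interstitial and fibroblast markers were detected in every library, with a summed level of 35010 to 42760 CPM in CTRL, 31720 to 43210 in ECKO, 39330 to 56740 in DKO, and 35580, 63700 and 24950 in SMKO 1, 2 and 3. SMKO 2 and DKO 1, the libraries highest in Igfbp7, were also the highest in this sum and in the macrophage and melanocyte sums. Of 10 endothelial markers 9 were detected throughout, at 1006 to 1308 CPM in CTRL, 1316 to 1681 in ECKO, 876 to 1186 in DKO and 1053 to 1739 in SMKO, with no marker at 0 in a group. In DKO against ECKO 8 of 9 tested endothelial markers lay below 0 (median log2 fold change -0.40), and edgeR called 1, Kdr (-1.76 ± 0.40, adjusted p = 0.0399), which is also among the genes most like Igfbp5. Against CTRL 4 of the 9 lay below 0 and 5 above, with a median of 0.18 and 0 called by edgeR. All 8 macrophage markers were detected, at 909 to 1218 CPM in CTRL, 820 to 1567 in ECKO, 848 to 2120 in DKO, and 1545, 4011 and 939 in SMKO. The melanocyte sum of 7 markers, 1 of them detected in every library, was 208 to 694 CPM in CTRL and 70.0 to 110 in ECKO, and 394 to 913 in DKO. It was 601, 1017 and 207 CPM in SMKO 1, 2 and 3, and no marker was at 0 in a group. In DKO against ECKO all 5 tested melanocyte markers lay above 0 (median log2 fold change 3.36), and edgeR called 1, Dct (2.57 ± 0.49, adjusted p = 0.0399), while against CTRL the median was 0.34 with 0 called by edgeR. The smooth muscle sum of 7 markers, 3 of them detected in every library, was 253 to 312 CPM (CTRL), 331 to 354 (ECKO), 193 to 262 (SMKO) and 328 to 390 (DKO), with Myocd at 0 in CTRL and DKO and Cnn1 at 0 in CTRL and SMKO. The blood sum of 6 markers was 241 to 3492 CPM (CTRL), 97.3 to 5608 (ECKO), 538 to 2336 (SMKO) and 122 to 469 (DKO), with Alas2 at 0 in DKO. All 5 tested blood markers lay below 0 in DKO against CTRL and in the comparison with ECKO (medians -2.44 and -3.63, 0 called by edgeR). The chondrocyte-like sum was 1320 to 2190 CPM (CTRL), 2369 to 3324 (ECKO), 1448 to 2471 (SMKO) and 1353 to 4076 (DKO). Col2a1 was at 0 in CTRL and Cnmd in the other groups. The heart muscle sum was 24.8 to 44.6 CPM (CTRL), 10.2 to 623 (ECKO), 37.4 to 110 (SMKO) and 61.7 to 77.2 (DKO), where 5 of 8 markers, Myh6 among them, were at 0. The Schwann and neural sum was 68.9 to 158 CPM over all groups. The part of these sums in the levels of the IGF genes was not tested.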

How the data were processed

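Aortic valve leaflets of 4 genotype groups were measured in 3 libraries each. Per the labels' protocols, libraries were made with Nextera XT, which loses strand, and sequenced from both ends (75 bases). The authors deposited total counts per gene for each library, per the file headers, and these counts were the input of every test. The authors also deposited TPM per library, per the file headers, used here only to compare genes and for ratios between them. The genome build is GRCm39, per the submitters' processing notes. Aligner, counting tool and gene models: not given in the sources used here. Fold changes and p-values deposited by the authors were not used.

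The 9 genes, the pathway lists and the marker lists were chosen with earlier results of these data known. Counts were scaled by TMM, filtered with filterByExpr (minimum count 10, 3 libraries) and fitted with edgeR 4.0.16 (R 4.3.3) by robust quasi-likelihood. The model held all 12 libraries and left 8 residual degrees of freedom. The 6 pairs of groups and the interaction were tested, with Benjamini-Hochberg adjustment over 6296 genes. Each SE was derived from the fold change and its F statistic. An adjusted p quoted without a tool is from this edgeR test. DESeq2 1.42.0, limma-voom (limma 3.58.1), other scalings, no filter, a replicate block and leaving out each library were tried as alternatives. The scripts were tested on simulated data. A group at 0 was given a floor of 3 counts over its pooled total; such floors and intervals cover counting error only, since PCR copies were not marked. Replicates differed beyond sampling noise (chi-square per degree of freedom 1.85 to 9.65), so none were merged.

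All 9 genes and Efemp2 are named throughout. Of each pathway list, called genes and up to 3 with the smallest p in DKO against CTRL are named, and for Igf2 and Igfbp5 the 8 genes of most like level (prior count 2; predicted and sex-linked genes left out); 1 gene that this rule names is not reported here. Promoter windows are from RefSeq (GRCm38.p6), matched by symbol for 9 of 9 genes. Exon overlaps and neighbours are from an annotation of the same older build, which held 38619 identifiers of the table and lacked 3090.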

Additional observations from a re-analysis of the deposited data

How the results depend on the processing

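Depth limits these results: 4 of the 9 genes (Igf2, Igfbp2, Igfbp3 and Igfbp6) had fewer than 10 counts in every DKO library, and SMKO 3 had 74827 counts in all. With group means removed, same-numbered libraries of different groups correlated at -0.14 to 0.18 (median 0.078, 5 of 18 pairs over 0.1). Pairs with different numbers stood at -0.20 to 0.15 (median -0.037, 3 of 36 over 0.1). These small values do not decide whether the replicate numbers pair the libraries, and the main fit used no pairing. With a replicate block, calls went from 31 to 50 for DKO against CTRL and from 36 to 50 for DKO against ECKO, no IGF gene gained a call, and the interaction of Igf1 turned from -0.14 to 0.052. Counts of called genes for DKO against CTRL, SMKO against CTRL, ECKO against CTRL, DKO against ECKO, DKO against SMKO, SMKO against ECKO and the interaction were 158, 8, 15, 173, 32, 16 and 28 with no low-count filter. There 2 of the 5 tested IGF genes passed for DKO against CTRL and 1 against ECKO, beside 0.952% and 1.04% of all genes. Scaling by library totals, which put the median of all genes at -0.14 in DKO against CTRL (0.016 with TMM) and -0.20 in SMKO against CTRL (0.0043 with TMM), gave 19, 1 and 14 calls for DKO against CTRL, SMKO against CTRL and DKO against ECKO, and 1 each for DKO against SMKO, SMKO against ECKO and the interaction. DESeq2 gave 2 in ECKO against CTRL, 3 in DKO against SMKO, 2 in SMKO against ECKO and 1 in the interaction. The cause of these shifts was not tested. Small differences that did not pass turned sign for Igf1r in SMKO against CTRL with DESeq2 (0.017) and for Igfbp4 in SMKO against ECKO with library totals (-0.00072). Igf2, given without a test, turned further with limma-voom. It went from 0.26 to -0.98 in SMKO against CTRL and from 0.21 to -1.09 in SMKO against ECKO.

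Leaving out 1 library, calls over all genes ranged from 4 to 139 in DKO against CTRL, 0 to 1 in SMKO against CTRL, 0 to 2 in ECKO against CTRL, 0 to 150 in DKO against ECKO, 0 to 128 in DKO against SMKO, 0 to 1 in SMKO against ECKO and 0 to 62 in the interaction, with the highest DKO counts without SMKO 2. Of the 5 tested IGF genes, 0 to 2 passed in each DKO comparison and 0 to 1 in the interaction. The fit without SMKO 2 gave the 2, and it called 1.82% of all genes in DKO against CTRL, 1.97% against ECKO and 1.68% against SMKO. Log2 fold changes of tested genes that turned sign, none of them called, ran as follows. Igf1 went from -0.77 to 0.076 in ECKO against CTRL, -0.96 to 0.0088 in DKO against ECKO, -0.69 to 0.28 in DKO against SMKO, -0.86 to 0.31 in SMKO against ECKO and -0.50 to 0.47 in the interaction. Igf1r went from -0.35 to 0.28 in SMKO against CTRL, -0.17 to 0.33 in ECKO against CTRL and -0.42 to 0.22 in SMKO against ECKO. Igfbp3 went from -1.07 to 0.39, -0.046 to 0.77 and -1.29 to 0.16 in the same 3 pairs. Igfbp4 went from -0.017 to 0.54, -0.069 to 0.21 and -0.10 to 0.45 in them, -0.080 to 0.48 in DKO against SMKO and -0.17 to 0.39 in the interaction. Igfbp7 went from -0.40 to 1.20, -0.13 to 0.27 and -0.48 to 1.12 in the same 3 pairs. In DKO against ECKO, Gsk3b went from -0.28 to 0.011 and Ccn5 from -0.44 to 1.09. Igf2 stayed between -5.02 and -4.06 in DKO against CTRL over all 18 alternatives, and Igfbp5 between -3.66 and -2.84. In SMKO against CTRL, Igf2 stood at 0.26 with all libraries, -0.24 without SMKO 1, 0.84 without SMKO 2 and -0.092 without SMKO 3. With 1 library left out, the value of Igf2 also turned sign in ECKO against CTRL (-0.24 to 0.29) and SMKO against ECKO (-0.29 to 0.79).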

Other observations

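Genes that lie beside or within the IGF loci gave little further signal. Igf2 shares 3596 of its 5723 exon bases with the predicted gene Gm49394 on the same strand and 98 with the antisense gene Igf2os, and both had 0 counts in all 12 libraries, so the table assigned no read of this region to them. Igfbp2 and Igfbp5 are neighbours 5457 bases apart that are read toward each other. Igfbp2 had counts only in DKO, 7 in all, whereas Igfbp5 had 140 counts there and 1718 in CTRL. Igfbp1 and Igfbp3 are neighbours in the same arrangement, 3539 bases apart, and Igfbp1, which is made mainly in liver, had 0 counts in every library. Igfals, which encodes the liver-made partner of IGFBP3 in plasma, also had 0 counts. The insulin genes Ins1 and Ins2 had 1 and 3 counts over all libraries. Insr, the insulin receptor, was at 4.75 to 5.76 TPM in CTRL and 3.25 to 6.22 TPM in DKO and did not pass (log2 fold change -0.040 ± 0.47, edgeR adjusted p = 0.990).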
